A study of Homo sapiens with 8 samples.

Results

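The aminoacyl-tRNA synthetases are the enzymes that join each amino acid to its transfer RNA, and 36 of their genes were followed here by symbol: 20 for the cytosolic enzymes and 16 for the mitochondrial enzymes, whose symbols end in 2. Of the 36, 35 had a row among the 23368 gene symbols of the count table: all 20 cytosolic genes and 15 of the 16 mitochondrial genes. MARS2 had no row under its symbol and was not analysed here. All 35 passed the filter on low counts and were tested. The table uses the earlier symbols, so that AARS, for example, is the gene now called AARS1. RNA sequencing was done on MDA-MB-231, an established human line of triple-negative breast cancer that grows as mesenchymal-like cells. No engineered allele is named in the labels. The cells received a control siRNA (siC) or siE1, siE2 or siE3, small interfering RNAs against ESRRA, the gene of the orphan nuclear receptor ERRα. Each of these 4 groups had 2 libraries, and the labels do not say whether they came from separate cultures, so that the p-values rest on a spread between libraries that may be technical only.

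A synthetase recognises an amino acid and the matching tRNAs, activates the amino acid with ATP and transfers it to the end of the tRNA, which makes it the step at which the genetic code is read into protein. Most amino acids have 1 nuclear gene for the cytosolic enzyme and another for an enzyme that is imported into mitochondria, where it serves the translation of the respiratory chain subunits encoded by mitochondrial DNA. GARS and KARS (glycine and lysine) serve both compartments from 1 gene each. EPRS charges both glutamate and proline, and FARSA and FARSB are the 2 subunits of the phenylalanine enzyme. MARS, RARS, LARS, IARS, DARS, QARS, KARS and EPRS assemble with scaffold proteins into the multisynthetase complex of the cytosol. ERRα is known as an activator of nuclear genes for mitochondrial energy metabolism, and ATF4, the transcription factor of the amino acid response, is known to raise the genes of many cytosolic synthetases when amino acids are short.

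Promoters from RefSeq (GRCh38.p14, 250 bases before to 50 after the start) were matched by symbol for 29 of the 35 genes, 16 cytosolic and 13 mitochondrial. DARS, LARS, VARS, YARS, AARS2 and VARS2 were not matched. The matched promoters were searched on both strands for TNAAGGTCA, the extended half-site to which ERRα binds, and for TGATGNAA, the ATF4 element, with N for any base. The ERR element occurred in 1 of the 16 cytosolic promoters, that of FARSA, and in 0 of the 13 mitochondrial promoters, against 0.963% of 27305 promoters of the same length. The ATF4 element occurred in 6 of the 16 cytosolic promoters and 1 of the 13 mitochondrial promoters, against 3.67% of all promoters. None of the 29 promoters searched held both. The windows below hold every match found in these 29 promoters. Each reads 5′ to 3′ along the gene, and capitals mark the match, which in AARS, CARS, IARS, MARS, TARS and FARSA is the reverse complement of the letters searched. The location follows each name.
AARS at chr16:70289675-70289704, minus strand: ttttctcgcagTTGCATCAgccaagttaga
CARS at chr11:3057407-3057436, minus strand: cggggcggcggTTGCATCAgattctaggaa
IARS at chr9:92293692-92293721, minus strand: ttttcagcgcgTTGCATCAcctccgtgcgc
MARS at chr12:57488053-57488082, plus strand: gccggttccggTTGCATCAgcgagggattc
NARS at chr18:57621804-57621833, minus strand: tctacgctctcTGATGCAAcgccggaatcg
TARS at chr5:33440956-33440985, plus strand: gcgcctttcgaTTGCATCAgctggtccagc
YARS2 at chr12:32756076-32756105, minus strand: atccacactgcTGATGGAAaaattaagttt
FARSA at chr19:12933926-12933956, minus strand: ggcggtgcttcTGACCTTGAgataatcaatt

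The ATF4 elements lie close to the start of transcription in 5 of the 6 cytosolic genes: 2, 4 and 13 bases before it in CARS, MARS and IARS, and 2 and 14 bases after it in TARS and NARS. In AARS the match lies 187 bases before the start, in YARS2 197 bases before it, and the ERR element of FARSA lies 234 bases before it. A match is a description of these letters and was not tested as a binding site here.

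The libraries held 21835995 to 25880548 counts over all genes. Libraries of 1 siRNA were much closer to each other (chi-square per degree of freedom 3.11 to 5.12 over 12364 genes) than libraries of different siRNAs (40.6 to 75.1), and no pair agreed within counting noise. Counts of ESRRA were 1379 and 1512 under siC, 228 and 271 under siE1, 205 and 168 under siE2 and 187 and 192 under siE3, so that its mRNA was lower with each siRNA. All 8 markers of MDA-MB-231 that had been listed were present, at summed levels of 9907 to 11350 CPM (counts scaled by library size) per library. Of 9 genes that this line is known to lack or to keep low, ESR1, PGR, CDH1, KRT5 and KRT14 stayed under 0.1 CPM as group means, while ERBB2 (52.87 to 66.74), EPCAM (9.818 to 12.18), FOXA1 (3.023 to 6.214) and GATA3 (2.7 to 3.845) were detected. Of these 4, FOXA1 was lower with siE1 and siE2 (log2 -0.43 and -0.83) and ERBB2 and GATA3 were higher with siE2 (0.21 and 0.51), and their part in the results was not tested. The 8 blood and endothelial markers summed to 0.8672 and 1.457 CPM under siC, 2.033 and 2.046 under siE1, 2.248 and 1.554 under siE2 and 1.143 and 1.428 under siE3. CD3E and HBB had no count in any library.

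The mRNAs of the cytosolic synthetases were lower after each siRNA against ESRRA, by a small amount in most genes. Of the 20, 15 fell and 2 rose with siE1, 17 fell and 1 rose with siE2, and 11 fell and 1 rose with siE3, by edgeR's quasi-likelihood test at a Benjamini-Hochberg adjusted p below 0.05 over 13395 genes. For comparison, 25.8% of all genes tested were lower and 24.5% higher with siE1, 28.5% lower and 27.9% higher with siE2, and 20.8% lower and 21.3% higher with siE3. The median log2 fold change of the 20 was -0.18, -0.29 and -0.15, against -0.01, 0.01 and 0 over all genes. In the average of the 3 siRNAs, 16 of the 20 fell and 0 rose, where 27.7% of all genes were lower and 23.4% higher. CARS, DARS, TARS and WARS did not pass in that average. Summed over the 20 genes, the siC libraries stood at 5964 and 6093 CPM, siE1 at 5678 and 5591, siE2 at 4914 and 4887 and siE3 at 5180 and 5402, so that all 6 libraries of the targeting siRNAs lay below both controls. In RNA from whole cultures, fewer cells with an mRNA and less of it per cell cannot be told apart, and the 3 comparisons share the siC libraries, so that they are not independent of each other.

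**Figure D1:**
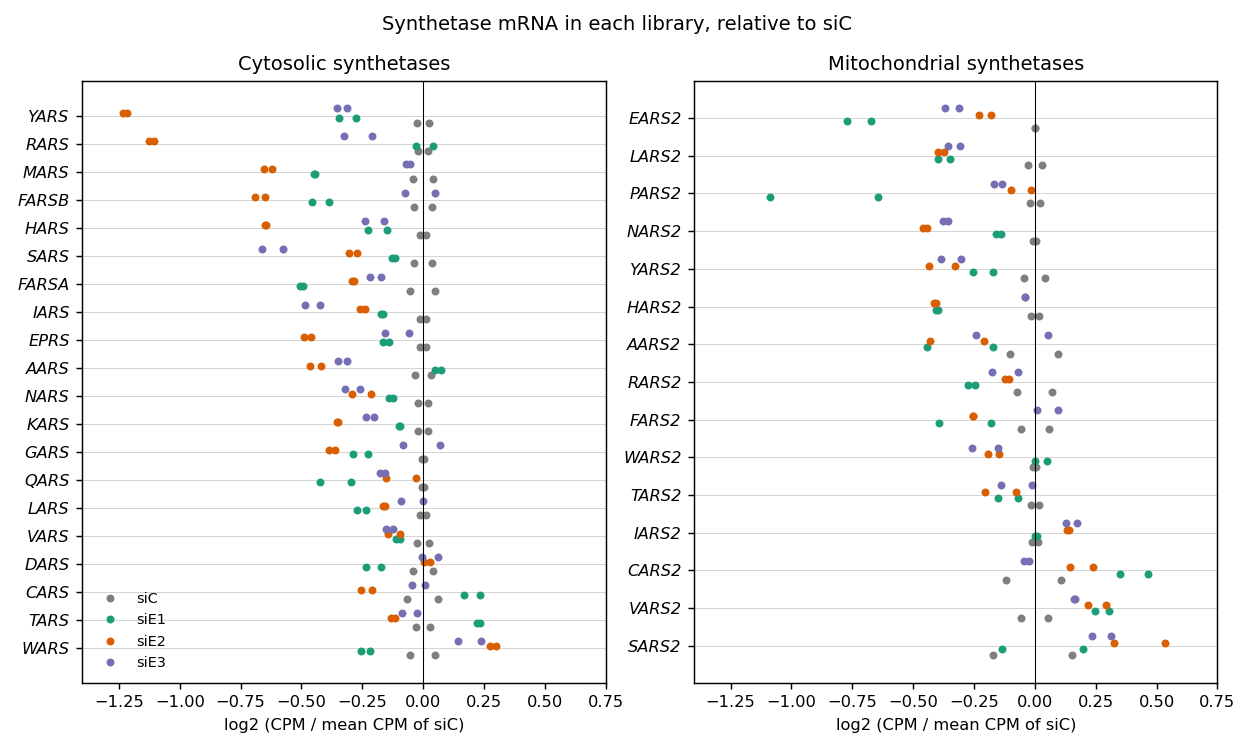
Level of each synthetase mRNA in each of the 8 libraries, as log2 of CPM over the mean CPM of the siC libraries, with cytosolic genes on the left and mitochondrial genes on the right, ordered by the average of the 3 siRNAs; each point is 1 library. YARS and RARS stand apart with siE2 (log2 fold changes of -1.22 and -1.12), and PARS2 and EARS2 with siE1 (-0.84 and -0.72).

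In 11 of the 20 cytosolic genes (EPRS, FARSA, HARS, IARS, KARS, MARS, NARS, QARS, SARS, VARS and YARS) and in 5 of the 15 mitochondrial genes (EARS2, HARS2, LARS2, NARS2 and YARS2) all 6 libraries with a siRNA against ESRRA lay below both siC libraries, which held for 15.4% of all genes tested. VARS2 was the member with all 6 libraries above siC, where 15.1% of all genes were so placed.

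YARS, which charges tyrosine, was the cytosolic gene with the lowest average. Its level was 179.4 and 185.7 CPM under siC, 150.9 and 143.7 under siE1, 78.61 and 77.72 under siE2 and 142.7 and 146.9 under siE3. Its groups with a siRNA against ESRRA did not overlap siC, and the siE2 libraries lay below all others. With siE2, YARS fell by 57.2% (log2 fold change -1.22, SE 0.0481, edgeR adjusted p 4.5e-11), and its log2 values were -0.31 for siE1 and -0.33 for siE3.

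RARS, the arginine enzyme of the multisynthetase complex, was at 261.6 and 269.3 CPM under siC, 273.1 and 260.3 under siE1, 121.6 and 123.4 under siE2 and 212.1 and 229.5 under siE3. The siE1 libraries overlapped siC, and the siE2 libraries stood far below all other libraries. RARS fell by 53.8% with siE2 (log2 fold change -1.12, SE 0.0492, edgeR adjusted p 1.3e-10) and by 0.27 on the log2 scale with siE3, while the siE1 value was 0.01 (adjusted p 0.92).

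MARS, which charges methionine for initiation and elongation alike, stood at 162.8 and 172.3 CPM under siC, 123.3 and 122.9 under siE1, 106.6 and 109.1 under siE2 and 161.2 and 159.6 under siE3. It fell with siE1 (log2 -0.45) and siE2 (-0.64), and the siE3 libraries lay just below siC (-0.06, edgeR adjusted p 0.29). FARSB had the same order, with log2 fold changes of -0.42, -0.67 and -0.01, of which the last did not pass. FARSA, the other subunit of the phenylalanine enzyme and the gene with the ERR element shown above, was at 116.8 and 125.4 CPM under siC, 85.35 and 86 under siE1, 98.97 and 99.34 under siE2 and 107.4 and 104.2 under siE3. FARSA therefore fell with each siRNA, by most with siE1 (log2 -0.50, -0.29 and -0.20). Its siE3 call was lost without siC replicate 2 (-0.14, adjusted p 0.089).

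SARS, which charges serine and also the selenocysteine tRNA, showed its lowest level with siE3: 572.8 and 603.3 CPM under siC, 542.3 and 538.7 under siE1, 486.6 and 476 under siE2 and 371.3 and 394.7 under siE3. All 3 pairs of libraries lay below siC, and the siE3 pair fell by 34.9% (log2 -0.62, SE 0.0439, edgeR adjusted p 3.4e-08). Its siE1 value of -0.12 did not pass without siC replicate 2 (adjusted p 0.22) or without siE1 replicate 1 or 2 (0.088 and 0.12). IARS, the isoleucine enzyme of the complex, was also lowest with siE3, at 624.5 and 613.9 CPM under siC, 552.7 and 549.5 under siE1, 517.8 and 525.1 under siE2 and 442.4 and 461.1 under siE3. Its log2 fold changes were -0.17, -0.25 and -0.45, each past the threshold. HARS, the histidine enzyme, was lowest with siE2, at 178.9 and 182.2 CPM under siC, 162.9 and 154.5 under siE1, 115.1 and 115.4 under siE2 and 152.9 and 161.5 under siE3 (log2 -0.19, -0.65 and -0.20).

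NARS, the asparagine enzyme, stood at 270.6 and 278.2 CPM under siC, 249.2 and 252.1 under siE1, 224.3 and 236.4 under siE2 and 229.4 and 219.8 under siE3. The fall with siE1 was the smallest of the 3 (log2 -0.13, -0.25 and -0.29). KARS, whose gene supplies lysine enzyme to both compartments, stood at 433.6 and 445.2 CPM under siC, 411 and 410.2 under siE1, 343.8 and 344.9 under siE2 and 373.9 and 382.5 under siE3. It fell with siE2 and siE3 (log2 -0.35 and -0.22), and its siE1 value of -0.10 passed only before rounding (edgeR adjusted p 0.05). The siE1 call of KARS was lost without siC replicate 1 or 2 (adjusted p 0.073 and 0.23) and without siE1 replicate 1 or 2 (0.15 and 0.16), and that of NARS without siC replicate 2 (0.13) and without siE1 replicate 1 or 2 (0.1 and 0.07). GARS, the glycine enzyme of both compartments, was at 344.2 and 346.4 CPM under siC, 295.3 and 283.1 under siE1, 269 and 263.8 under siE2 and 326.3 and 362.2 under siE3. GARS fell with siE1 and siE2 (log2 -0.26 and -0.37), and the siE3 libraries lay on either side of siC (-0.00, adjusted p 0.96).

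CARS, TARS and WARS were called in opposite directions by different siRNAs. TARS, the threonine enzyme and the most abundant synthetase mRNA, was at 943.5 and 983 CPM under siC, 1133 and 1122 under siE1, 889.8 and 879.7 under siE2 and 907.4 and 947.4 under siE3. It rose with siE1 (log2 0.23, SE 0.0396, edgeR adjusted p 0.00021) and fell with siE2 (-0.12, adjusted p 0.016), and the siE3 libraries overlapped siC. The fall of TARS with siE2 did not pass without siC replicate 2 (-0.10, adjusted p 0.14), without siE2 replicate 2 (-0.12, adjusted p 0.083) or with scaling by library size alone (-0.08, adjusted p 0.064). CARS, the cysteine enzyme, was at 124.8 and 136.3 CPM under siC, 153.4 and 146.7 under siE1, 113 and 109.4 under siE2 and 126.4 and 131.2 under siE3. It rose with siE1 (log2 0.20) and fell with siE2 (-0.23), and the rise did not pass without siC replicate 1 (0.14, adjusted p 0.087) or without siE1 replicate 1 (0.17, adjusted p 0.054).

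WARS, the tryptophan enzyme, which is known as a target of interferon γ, moved the other way. It was at 160.4 and 172.3 CPM under siC, 142.9 and 139.2 under siE1, 204.6 and 201 under siE2 and 183.7 and 195.9 under siE3, with no overlap between siC and any other group. WARS fell with siE1 (log2 -0.24, SE 0.0498, edgeR adjusted p 0.00097) and rose with siE2 (0.29) and siE3 (0.19). The siE3 rise did not pass without siC replicate 1 (0.14, adjusted p 0.086) or without siE3 replicate 2 (0.14, adjusted p 0.053). The other cytosolic genes ranged from -0.47 (EPRS with siE2) to 0.06 (AARS with siE1), where AARS fell with siE2 and siE3 (-0.44 and -0.33), DARS fell with siE1 (-0.20), QARS fell with siE1 and siE3 (-0.36 and -0.17), LARS fell with siE1 and siE2 (-0.25 and -0.16) and VARS fell with siE2 and siE3 (-0.12 and -0.14). Without siC replicate 1 both calls of VARS (-0.09 and -0.11, adjusted p 0.17 and 0.12) and the siE3 call of QARS (adjusted p 0.071) were lost, and the latter also without siC replicate 2 (0.068) or siE3 replicate 1 (0.071). The average of VARS (-0.12) was likewise lost without siC replicate 1 (-0.10, adjusted p 0.13). The fall of EPRS with siE1 (-0.15) was lost without siC replicate 1 (adjusted p 0.057) or siE1 replicate 2 (0.068).

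Within the multisynthetase complex, 7 of the 8 enzymes were lower after siE1, 6 after siE2 and 4 after siE3. With each of these siRNAs 0 rose. Of all genes tested, 25.8%, 28.5% and 20.8% were lower and 24.5%, 27.9% and 21.3% higher. The median log2 fold changes of the 8 enzymes were -0.19, -0.30 and -0.14. The 12 cytosolic enzymes outside the complex had medians of -0.16, -0.29 and -0.17, with 8, 11 and 7 lower and 2, 1 and 1 higher. The medians of the enzymes inside and outside the complex thus lay within 0.03 of each other in each comparison, a description with no test.

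The mitochondrial synthetases had calls in both directions. Of the 15, 9 fell and 2 rose with siE1, 8 fell and 4 rose with siE2, and 5 fell and 1 rose with siE3, where 25.8%, 28.5% and 20.8% of all genes tested were lower and 24.5%, 27.9% and 21.3% higher. In the average of the 3 siRNAs (27.7% of all genes lower, 23.4% higher), 7 fell (EARS2, HARS2, LARS2, NARS2, PARS2, RARS2 and YARS2), 4 rose (CARS2, IARS2, SARS2 and VARS2), and AARS2, FARS2, TARS2 and WARS2 did not pass. Their medians were -0.21, -0.17 and -0.09, with -0.17 in the average. The count of 12 called with siE2 fell to 6 without siC replicate 1 (1 higher, 5 lower) and to 6 without siE2 replicate 1 (2 higher, 4 lower). The count of 11 in the average fell to 6 without siC replicate 1, with 0 higher and 6 lower, so that each of the 4 rises was lost there. Summed over the 15 genes, the levels were 899.9 and 919.3 CPM under siC, 828.7 and 840.4 under siE1, 860.3 and 867.9 under siE2 and 867.5 and 876.8 under siE3.

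EARS2, the mitochondrial glutamate enzyme, was the lowest of them on average. It stood at 73.25 and 73.1 CPM under siC, 42.88 and 45.86 under siE1, 62.39 and 64.64 under siE2 and 56.64 and 58.93 under siE3, and no group overlapped siC. EARS2 fell by 39.3% with siE1 (log2 -0.72, SE 0.0581, edgeR adjusted p 8.6e-08), and by 0.20 and 0.34 on the log2 scale with siE2 and siE3. The siE2 call was lost without siE2 replicate 1 (-0.18, adjusted p 0.056). In mitochondria EARS2 charges the glutamine tRNA with glutamate as well, and the amidotransferase of which QRSL1 is a subunit turns it into glutamine. QRSL1 also fell with each siRNA (log2 -0.69, -0.42 and -0.23). It was at 37.06 and 43.02 CPM under siC, 26.34 and 23.39 under siE1, 31.09 and 28.61 under siE2 and 33.01 and 35.22 under siE3. The other subunits did not all follow. PET112 fell with siE1 and siE3 (log2 -0.68 and -0.267) and rose with siE2 (0.242). GATC fell with each siRNA (-0.163, -0.285 and -0.19).

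LARS2, the mitochondrial leucine enzyme, fell by nearly the same amount with each siRNA. Its libraries were at 102.8 and 107.1 CPM under siC, 79.74 and 82.53 under siE1, 79.6 and 81 under siE2 and 82.06 and 84.71 under siE3. The log2 fold changes were -0.37, -0.39 and -0.33 (edgeR adjusted p 2e-05, 1e-05 and 7.9e-05), and the average corresponds to a level that fell by 22.2%. None of the differences between siRNAs passed for LARS2 (0.02, -0.04 and -0.05 on the log2 scale, each with an SE of about 0.051).

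NARS2, the mitochondrial asparagine enzyme, was at 65.54 and 66.07 CPM under siC, 58.87 and 59.67 under siE1, 47.82 and 48.46 under siE2 and 51.38 and 50.62 under siE3 (log2 -0.15, -0.45 and -0.37). YARS2, the mitochondrial tyrosine enzyme, was at 42.49 and 45.08 CPM under siC, 36.69 and 38.83 under siE1, 32.39 and 34.87 under siE2 and 35.43 and 33.53 under siE3 (log2 -0.21, -0.38 and -0.35). Both fell with each siRNA, and the fall was smallest with siE1. The siE1 call of NARS2 was lost without any 1 of the siC or siE1 libraries (adjusted p 0.08 to 0.12), without a filter on low counts (0.052) and with the DESeq2 Wald test (0.1). That of YARS2 was lost without siC replicate 2 (adjusted p 0.12), without siE1 replicate 1 (0.11) and with the Wald test (0.054). HARS2, the histidine enzyme whose gene lies beside HARS, fell with siE1 and siE2 (log2 -0.40 and -0.41) and was at -0.04 with siE3 (edgeR adjusted p 0.61).

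PARS2, the mitochondrial proline enzyme, passed the test with siE1 and with neither of the other siRNAs (adjusted p 0.71 with siE2 and 0.36 with siE3). It had 269 and 279 counts with siC, 126 and 201 under siE1, 277 and 262 under siE2 and 236 and 255 under siE3, or 12.28 and 11.95, 5.693 and 7.758, 11.98 and 11.31, and 10.79 and 11.03 CPM. Both siE1 libraries lay below the other 6 and differed from each other by more than any other pair. PARS2 fell by 44.0% with siE1 (log2 -0.84, SE 0.131, edgeR adjusted p 7.8e-05), and it was also lower with siE1 than with siE2 (-0.78, adjusted p 0.00012) and siE3 (-0.69, adjusted p 0.00058). Its average over the siRNAs (-0.35) did not pass without siC replicate 1 (-0.33, adjusted p 0.064).

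CARS2, VARS2, SARS2 and IARS2 were the mitochondrial genes that rose on average, and each of these calls depends on single libraries. CARS2, the mitochondrial cysteine enzyme, was at 44.59 and 52.15 CPM under siC, 61.63 and 66.78 under siE1, 53.53 and 57.01 under siE2 and 47.5 and 46.86 under siE3. It rose by 32.7% with siE1 (log2 0.41, SE 0.073, edgeR adjusted p 0.00026) and by 0.19 on the log2 scale with siE2, and the siE3 libraries lay between the controls. Without siC replicate 1 the average of CARS2 went from 0.19 to 0.08 (adjusted p 0.4) and its siE2 value to 0.08 (adjusted p 0.42). Its siE2 value also did not pass without siE2 replicate 2 (0.14, adjusted p 0.22). VARS2, the valine enzyme, was at 34.46 and 37.19 CPM under siC, 42.56 and 44.23 under siE1, 43.89 and 41.64 under siE2 and 40.14 and 40.02 under siE3 (log2 0.28, 0.25 and 0.16, the last with an adjusted p of 0.063). Without siC replicate 1 the average of VARS2 was 0.17 (adjusted p 0.063) in place of 0.23, and its siE2 value was 0.20 (adjusted p 0.053).

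SARS2, the mitochondrial serine enzyme, was at 23.09 and 28.97 CPM under siC, 29.86 and 23.7 under siE1, 37.75 and 32.58 under siE2 and 30.63 and 32.36 under siE3. Its replicates differed widely, siE1 overlapped siC, and the siE2 and siE3 libraries lay above both controls. SARS2 rose with siE2 (log2 0.43, SE 0.114, edgeR adjusted p 0.0046) and in the average (0.25, adjusted p 0.043). The siE2 call was lost without siC replicate 1 (0.28, adjusted p 0.074) and without siE2 replicate 1 (0.32, adjusted p 0.065). The average did not pass without siC replicate 1 (0.09, adjusted p 0.53), siE1 replicate 1 (0.19, adjusted p 0.084), siE2 replicate 1 (0.21, adjusted p 0.083) or siE3 replicate 2 (0.23, adjusted p 0.074). The block on the replicate number also ended it (0.24, adjusted p 0.067). In GENCODE v29, 57.0% of the exon bases of SARS2 are shared with MRPS12 and AC011455.2, so that its counts are uncertain. IARS2, the mitochondrial isoleucine enzyme, rose with siE2 and siE3 (log2 0.14 and 0.15; 0.12 and 0.14 without siC replicate 2, adjusted p 0.073 and 0.063) and was at 0.01 with siE1. Its siE2 value also did not pass without siE2 replicate 1 (adjusted p 0.057). Its average of 0.10 did not pass without siC replicate 1 (0.11, adjusted p 0.082), siC replicate 2 (0.08, adjusted p 0.18) or siE1 replicate 1 (0.10, adjusted p 0.051).

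The remaining mitochondrial genes had calls that rest on single libraries, or none. AARS2, at 17.26 to 25.06 CPM over the 8 libraries, fell with siE1 and siE2 (log2 -0.29 and -0.32), calls that were lost without siC replicate 1 (-0.20 and -0.22, adjusted p 0.28 and 0.22), without siE1 or siE2 replicate 1 in the group concerned (-0.17 and -0.21, adjusted p 0.31 and 0.25) and under the block on the replicate number (adjusted p 0.075 and 0.054). FARS2 fell with siE1 and siE2 (-0.29 and -0.25) and WARS2 with siE2 and siE3 (-0.17 and -0.20). All 4 of these calls were lost without siC replicate 1 (adjusted p 0.1, 0.15, 0.1 and 0.069) and without at least 1 library of the siRNA concerned. RARS2 fell with siE1 (-0.26), which did not pass without siC replicate 2 (-0.19, adjusted p 0.087), and its average of -0.17 was then -0.09 (adjusted p 0.35). TARS2 passed in no comparison with siC, with values of -0.11, -0.14 and -0.07.

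**Figure D2:**
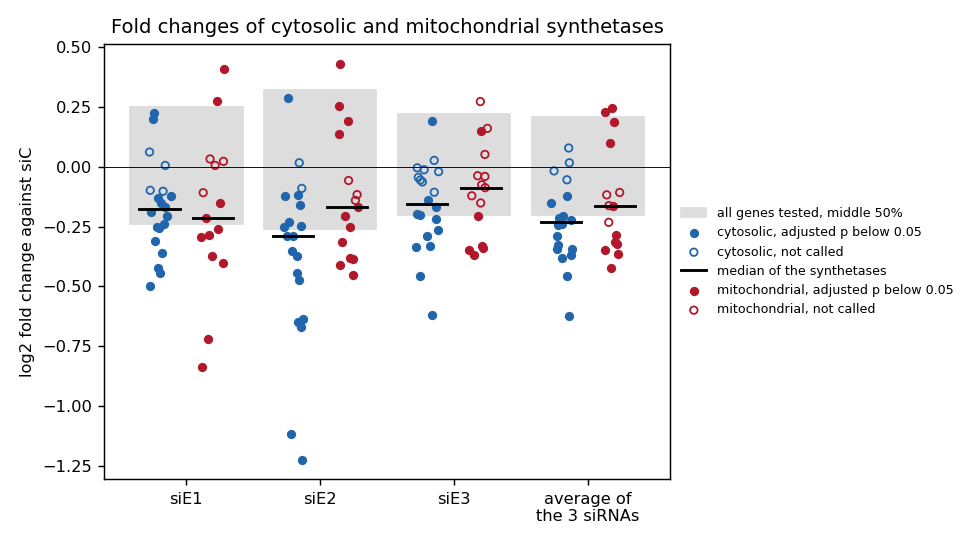
Log2 fold change against siC of each cytosolic (blue) and mitochondrial (red) synthetase for each siRNA and for the average of the 3; filled points passed an adjusted p of 0.05, black bars are medians and grey bands hold the middle 50% of all genes tested. The cytosolic median lies below the mitochondrial one with siE2 (-0.29 and -0.17) and siE3 (-0.15 and -0.09), and above it with siE1 (-0.18 and -0.21).

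The 2 compartments were then set side by side. The cytosolic median minus the mitochondrial median was 0.04 with siE1, -0.12 with siE2, -0.07 with siE3 and -0.07 in the average of the 3. In single libraries, each taken against the mean of siC, this difference was 0.024 and -0.026 under siE1, -0.086 and -0.15 under siE2 and -0.125 and -0.006 under siE3, where the controls gave -0.005 and 0.005. The siE1 libraries lay on either side of 0, and without siC replicate 2 or siE1 replicate 1 the siE1 difference was 0 and -0.03. Between fits without 1 library the siE2 difference ran from -0.15 (without siE2 replicate 1) to -0.08 (without siC replicate 2). The siE3 difference ran from -0.125 (without siE3 replicate 2) to -0.007 without siC replicate 1 and -0.006 without siE3 replicate 1. The difference in the average ran from -0.104 (without siC replicate 1) to -0.014 (without siC replicate 2). Genes are not replicates of a compartment, so these differences carry no test. The share of mitochondrial enzymes in all synthetase mRNA was 13.1% and 13.1% under siC, 12.7% and 13.1% under siE1, 14.9% and 15.1% under siE2 and 14.3% and 14% under siE3. The siE2 and siE3 libraries lay above both controls, and the siE1 libraries did not. A share of summed levels weighs abundant genes most. IARS2 alone held 273.3 of the 899.9 CPM of siC replicate 1 and 305.7 of the 876.8 CPM of siE3 replicate 2. Whether the shift with siE3 holds without IARS2 was not tested. Leaving GARS and KARS, which serve both compartments, out of the cytosolic genes gave medians of -0.18, -0.27 and -0.15 for the other 18.

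Enzymes for the same amino acid moved together in some pairs and apart in others. Tyrosine, histidine, leucine, asparagine and arginine had both enzymes lower in the average (YARS -0.62 and YARS2 -0.31, HARS -0.34 and HARS2 -0.28, LARS -0.15 and LARS2 -0.36, NARS -0.22 and NARS2 -0.32, RARS -0.46 and RARS2 -0.17), each past the threshold, where that of RARS2 was lost without siC replicate 2 (-0.09, adjusted p 0.35). Serine, isoleucine and valine had a cytosolic enzyme that fell and a mitochondrial enzyme that rose (SARS -0.34 and SARS2 0.25, IARS -0.29 and IARS2 0.10, VARS -0.12 and VARS2 0.23), where the calls of the 3 mitochondrial enzymes were lost without siC replicate 1. For glutamate and proline, EPRS stood at -0.24, EARS2 at -0.42 and PARS2 at -0.35. In GENCODE v29, HARS and HARS2 share exon bases with each other, so that the counts of this pair may not be separate. The exon bases shared with any other gene were 8.38% for HARS and 15.8% for HARS2.

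Over the 35 genes, 11 were called lower with each of the 3 siRNAs, which held for 7.42% of all genes tested: FARSA, HARS, IARS, KARS, NARS, SARS and YARS among the cytosolic, and EARS2, LARS2, NARS2 and YARS2 among the mitochondrial enzymes. This count dropped to 5 without siC replicate 2 and to 6 without either siE1 library, with KARS, NARS, SARS, NARS2 and YARS2 losing siE1 calls in such fits. HARS lost its siE1 call without siE1 replicate 2 (-0.15, adjusted p 0.058) and FARSA its siE3 call without siC replicate 2 (-0.14, adjusted p 0.089). IARS, YARS and LARS2 were called lower with each siRNA in every fit that left out 1 library. Calls with a change of at least 1.5-fold made up 14.7%, 18.0% and 9.97% of all genes tested with siE1, siE2 and siE3. Among the synthetases they were 0, 5 and 1 of the 20 cytosolic genes (YARS, RARS, FARSB, HARS and MARS with siE2, SARS with siE3), and 2, 0 and 0 of the 15 mitochondrial genes (PARS2 and EARS2 with siE1).

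ESRRA had log2 fold changes of -2.62, -2.99 and -2.92 with the 3 siRNAs, and was 0.37 higher with siE1 than with siE2 (edgeR adjusted p 0.0092). The siRNAs also differed from each other in many genes, synthetases among them. Between siE1 and siE2, 24 of the 35 differed (16 of the 20 cytosolic and 8 of the 15 mitochondrial), where 57.1% of all genes tested did. Between siE1 and siE3 the count was also 24 of 35, against 48.7% of all genes, and between siE2 and siE3 it was 15 of 35, against 48.5%. Of the cytosolic genes, 12 were higher and 4 lower with siE1 than with siE2, and 10 were lower and 2 higher with siE2 than with siE3. The mitochondrial genes differed between siE2 and siE3 in 3 cases of 15 (CARS2, FARS2 and HARS2).

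**Figure D3:**
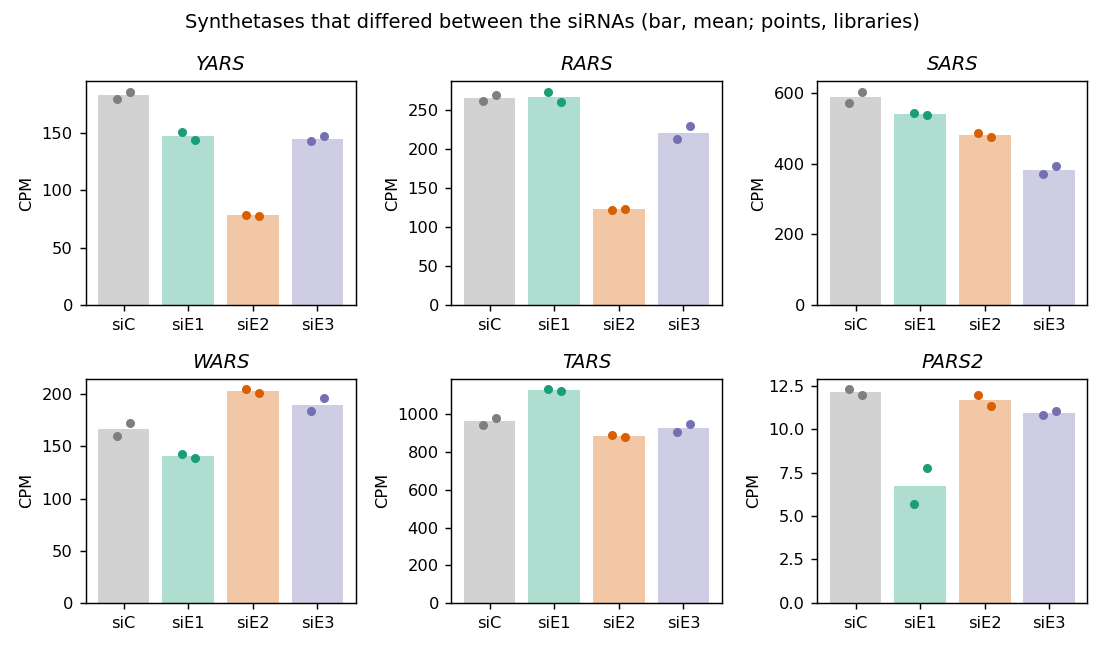
CPM of 6 synthetases in each group; bars are means of 2 libraries and points are the libraries, and each panel has its own axis starting at 0. YARS and RARS are lowest with siE2, SARS with siE3 and PARS2 with siE1, while WARS is below siC with siE1 and above it with siE2 and siE3, and TARS is highest with siE1.

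The largest differences were in RARS, which was 1.12 higher on the log2 scale with siE1 than with siE2 (SE 0.0491, edgeR adjusted p 8.9e-11), and in YARS, which was 0.91 higher with siE1 than with siE2 and 0.89 lower with siE2 than with siE3 (adjusted p 5.9e-10 and 1.5e-09). YARS did not differ beyond its spread between siE1 and siE3 (0.02, SE 0.0465, adjusted p 0.7). SARS was lower with siE3 than with siE1 or siE2, by 0.50 and 0.33 on the log2 scale. EARS2 was lower with siE1 than with siE2 (-0.52) and siE3 (-0.38). TARS was higher with siE1 than with siE2 (0.35) and siE3 (0.28), CARS likewise (0.43 and 0.22), and WARS was lower with siE1 than with siE2 (-0.52) and siE3 (-0.43), each past the threshold.

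Per length of coding sequence, the cytosolic mRNAs were the more abundant in the controls. Coding lengths were those of the principal transcripts in GENCODE v29. The 20 cytosolic genes ran from 58.2 CPM per kb (CARS) to 444 (TARS), with a median of 116, and the 15 mitochondrial genes from 7.94 (AARS2) to 89.3 (IARS2), with a median of 28.6. IARS2 was the 1 mitochondrial gene whose level fell within the cytosolic range. For the same amino acid, the cytosolic level was 22.7 times the mitochondrial level for serine (SARS 381 and SARS2 16.8) and 21.6 times for threonine, and 1.53 times for EPRS over EARS2 and 1.84 times for IARS over IARS2.

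**Figure D4:**
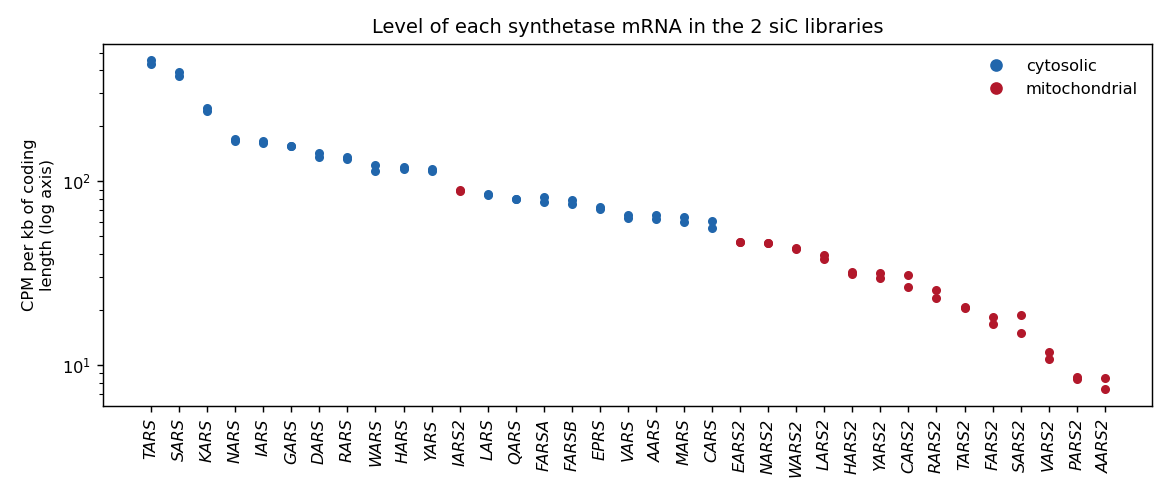
CPM per kb of coding length of each synthetase in the 2 siC libraries (points), on a log axis, ordered by mean, with cytosolic genes in blue and mitochondrial genes in red. TARS is highest at 444 and AARS2 lowest at 7.94, and IARS2 at 89.3 is the mitochondrial gene that lies among the cytosolic ones.

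In this order the levels form a gradual slope, and many neighbours cannot be separated at 2 libraries. TARS, SARS and KARS stood above the rest, with library values of 435 and 453, 371 and 391, and 242 and 249 CPM per kb that did not overlap. NARS followed with a mean of 167 and IARS with 164, and EARS2 and NARS2, the mitochondrial genes that came next after IARS2, had means of 46.6 and 46.0.

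Other genes that act beside the synthetases were listed by role. Of 16 partners of tRNA charging, 11 fell and 0 rose with siE1, 13 fell and 1 rose with siE2, 7 fell and 0 rose with siE3, and 14 fell and 0 rose in the average (median -0.25), where 25.8%, 28.5%, 20.8% and 27.7% of all genes tested were lower. The scaffolds of the multisynthetase complex were among them: AIMP1 fell with each siRNA (log2 -0.53, -0.35 and -0.23), AIMP2 with siE1 and siE2 (-0.26 and -0.28) and EEF1E1, also called AIMP3, with siE2 (-0.52). MTFMT, which formylates the initiator methionyl-tRNA of mitochondria, was lowest with siE3 (-0.28, -0.29 and -0.84). DTD1, which removes D-amino acids from mischarged tRNA, fell with siE1 (-0.97) and was at -0.01 and -0.04 with the other siRNAs (edgeR adjusted p 0.9 and 0.52).

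Of 16 factors of mitochondrial translation, 9 fell and 1 rose with siE1, 13 fell and 1 rose with siE2, 10 fell and 0 rose with siE3, and 11 fell in the average (median -0.24), beside the same shares of all genes (25.8%, 28.5%, 20.8% and 27.7% lower). The elongation factor GFM1 (average -0.62), the mRNA-binding protein LRPPRC (-0.56), RMND1 (-0.60) and the elongation factor TUFM (-0.22) fell with each siRNA. Of 20 genes for mitochondrial transcription and the maturation of tRNA, 10 fell and 1 rose with siE1, 15 fell with siE2, 13 fell with siE3 and 15 fell in the average (median -0.22), 0 of them rising in the last 3. CDK5RAP1 and YRDC, which modify tRNA bases, had averages of -0.51 and -0.61, and the transcription terminator family member MTERFD1 had -0.50. These lists were drawn up with earlier results of these data known, so that their counts are descriptions.

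The genes of the ATF4 amino acid response, 31 of 34 with enough counts to be tested, were called in both directions. With siE1, 8 rose and 11 fell, with siE2 6 rose and 12 fell, and with siE3 7 rose and 7 fell, with medians of -0.05, -0.12 and 0.10. Among all genes tested the higher and lower shares lay close together: 24.5% and 25.8%, 27.9% and 28.5%, and 21.3% and 20.8%. The ATF4 list had more falls than rises under siE1 and siE2, and as many of each under siE3. Its difference from all genes was not tested. ATF4 itself was at 168.2 and 177.3 CPM under siC, 148 and 151.3 under siE1, 157.3 and 151.6 under siE2 and 178.7 and 182.7 under siE3, lower with siE1 and siE2 (log2 -0.21 and -0.16) and at 0.06 with siE3 (edgeR adjusted p 0.28). ASNS, the asparagine synthetase gene that serves as a textbook ATF4 target, fell with siE1 and siE2 (-0.37 and -0.33) and rose with siE3 (0.30). DDIT4 (average 1.34) and CEBPB (0.53) rose with each siRNA, and ALDH18A1 (-0.54) fell with each. The 7 synthetases with an ATF4 element in the searched promoter, AARS, CARS, IARS, MARS, NARS, TARS and YARS2, had averages of -0.24, -0.02, -0.29, -0.38, -0.22, 0.02 and -0.31. Of the 9 genes of the kinases that act upstream of ATF4 and of their partners, 2 rose and 1 fell with siE1, 4 rose and 2 fell with siE2, and 0 rose and 1 fell with siE3.

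**Figure D5:**
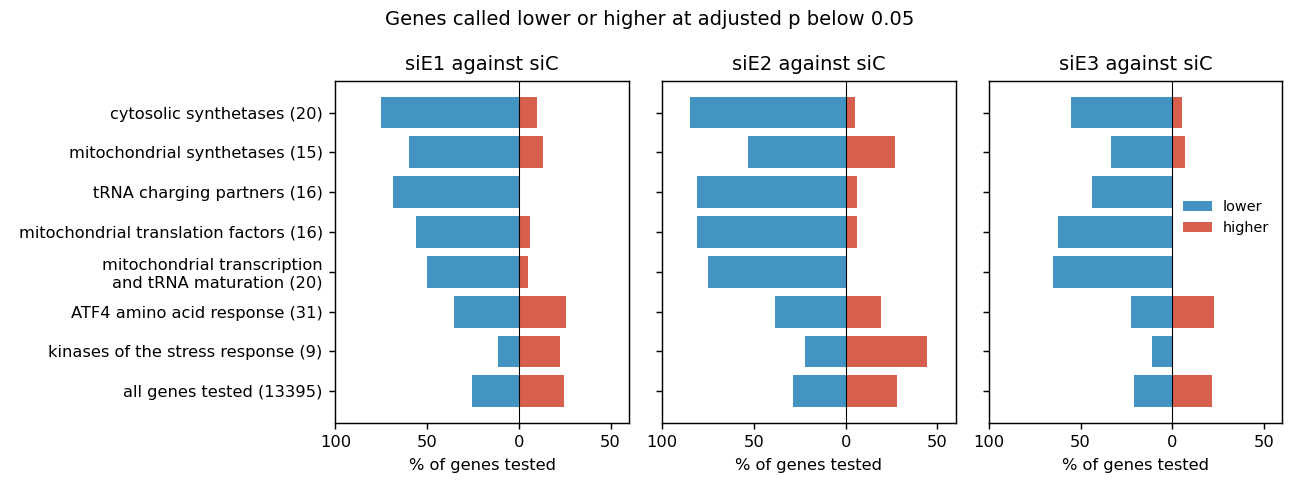
Percent of the tested genes of each list called lower (blue, to the left) and higher (red, to the right) with each siRNA against siC, with all 13395 genes tested as the last bar and the number of tested genes in parentheses. Both synthetase groups and the 3 lists of charging partners, mitochondrial translation factors and mitochondrial transcription have more genes lower than higher with each siRNA; the ATF4 list has 7 genes on each side with siE3.

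In the authors' deposited table, at an adjusted p below 0.05, 12 cytosolic synthetases were lower and 2 higher with siE1, 16 lower and 1 higher with siE2, and 9 lower and 1 higher with siE3. Of the mitochondrial enzymes, the authors' deposited table had 6 lower and 2 higher, 5 lower and 1 higher, and 4 lower and 0 higher. The shares of all genes past this threshold in that table were not counted, so that these counts have no background beside them. Of the genes called lower with each siRNA above, KARS, NARS, SARS, NARS2 and YARS2 did not pass with siE1 in that table.

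Counting could mix some members with other genes. A pseudogene named after the gene exists for 11 of the 35 (such as KARS and CARS), and 20 share exon bases with another gene in GENCODE v29. The share was 22.0% for VARS2, 15.8% for HARS2, 13.3% for MARS and 10.6% for WARS. Whether the counting used strand is not known here, and the counts of these members are uncertain to that extent.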

How the data were processed

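RNA was sequenced from 4 groups of 2 libraries. Per the submitters' processing notes, TopHat 1.3.3, HTSeq, DESeq and the build hg19 were used; the annotation and the strand setting are not stated in the labels or headers. The authors' deposited table gives, per the file headers, raw counts per gene symbol, and for each siRNA a linear fold (ratio) and an adjusted p-value, used only for the comparison with the authors' calls.

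The counts were tested with edgeR 4.0.16 (filterByExpr, TMM scaling with factors of 0.98 to 1.02, glmQLFit and glmQLFTest, 1 mean per group, 4 residual degrees of freedom, common dispersion 0.00166) in R 4.3.3, with Benjamini-Hochberg adjustment over 13395 genes in each contrast and a threshold of 0.05. CPM values use TMM-scaled library sizes. Groups came from the sample titles. Alternatives were DESeq2 1.42.0 size factors and its Wald test, limma-voom (limma 3.58.1), library size alone, other filters on low counts, only the groups compared, a replicate block, fits without each library in turn, and a minimum fold of 1.5. On simulated data, a seeded log2 change of 0.25 was recovered in 38% of such genes for siE1 (13286 genes), 44% for siE2 (13264) and 40% for siE3 (13282), and one of 0.5 in 82%, 74% and 80%. Among the simulated calls 6.79%, 6.79% and 6.29% were false. Each simulation changed 200 genes and left all others unchanged, so that far fewer genes changed than were called in these data. The recovered shares therefore do not measure how many such changes the tests find in these data.

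Every library value was given for the 21 members that were called the same way with all 3 siRNAs, were called in opposite directions, had the 3 highest or 3 lowest averages of their compartment, or serve both compartments (GARS and KARS). The members and the lists were chosen with earlier results of these data known. Coding lengths came from GENCODE v29 and promoters from RefSeq, both matched by symbol or synonym. Protein sequences were not used here, and some gene results are not reported. Tables and plots were made with Python 3.11.15, numpy 2.4.6, pandas 2.3.3 and matplotlib 3.10.9.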

Additional observations from a re-analysis of the deposited data

Results flagged for a closer look

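CARS, TARS and WARS passed the test in opposite directions with different siRNAs, and the differences between those siRNAs passed as well. CARS was 0.432 higher on the log2 scale with siE1 than with siE2 (edgeR adjusted p 4.5e-06), and both siE1 libraries lay above all other libraries. TARS was 0.349 higher with siE1 than with siE2 (adjusted p 2.3e-06), with both siE1 libraries above all others. For WARS the difference was -0.524 between siE1 and siE2 (adjusted p 3.2e-07) and -0.429 between siE1 and siE3 (adjusted p 4.5e-06), and both siE1 libraries lay below all others. Groups of 2 libraries were too small to look for single outlying samples.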

How the results depend on the processing

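At a fold limit of 1.5 the calls came to 0, 5, 1 and 1 cytosolic genes (siE1, siE2, siE3 and the average), to 2, 0, 0 and 0 mitochondrial genes, and to 3, 1 and 3 genes between siE1 and siE2, siE1 and siE3, and siE2 and siE3. Mitochondrial calls ranged from 6 to 12 both with siE2 and in the average when 1 library was left out. The cytosolic minus the mitochondrial median then ranged from -0.027 to 0.035 with siE1, from -0.15 to -0.08 with siE2, from -0.125 to -0.006 with siE3 and from -0.104 to -0.014 in the average. The average of CARS, -0.02, was 5.6e-05 with library size alone and from -0.0808 to 0.046 when 1 library was left out (the ends without siC replicate 1 and 2), and the average of TARS, 0.02, went from -0.015 to 0.0447 (likewise without siC replicate 1 and 2). None of these averages passed, and the cause was not tested. Replicate numbers did not pair the samples in the same way across the groups. Over 10502 genes, deviations of same-numbered libraries correlated at 0.257 between siC and siE3 and at 0.364 between siE1 and siE2. The other pairs of groups had negative correlations, from -0.39 to -0.337. A block joining libraries of different numbers was not fitted. The replicate block lost the calls of KARS with siE1 (adjusted p 0.078), AARS2 with siE1 and siE2 (0.075 and 0.054), SARS2 in the average (0.067), LARS between siE2 and siE3 (0.06) and YARS2 between siE1 and siE2 (0.066). KARS with siE1 was also lost under the DESeq2 Wald test (0.089) and 11 other settings. The average uses all groups, so it has no fit of only the groups compared.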

Other observations

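TARSL2, a relative of TARS, has a row but is not on the list of 36. It had 74 to 198 counts per library. It rose with siE1 (0.55, adjusted p 0.0095), fell with siE3 (-0.51, adjusted p 0.033) and stood at 0.30 with siE2 (adjusted p 0.14), and it was 1.06 higher on the log2 scale with siE1 than with siE3 (adjusted p 0.00011).

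Neighbouring starts in RefSeq were searched for the 29 synthetases with a matched promoter, not for DARS, LARS, VARS, YARS, AARS2 and VARS2. Of the 29, 10 have a gene on the other strand whose start lies within 1000 bases and that is read away from them. The starts of HARS and HARS2 are 85 bases apart, and those of FARS2 and LYRM4 57 bases apart. RARS2 and ORC3, 148 bases apart, had log2 fold changes of -0.26 and -0.29 under siE1, -0.12 and -0.20 under siE2 and -0.12 and -0.17 under siE3, of which the 3 of ORC3 and the siE1 value of RARS2 passed. The starts of SARS2 and MRPS12 are 181 bases apart. MRPS12, a protein of the mitochondrial ribosome, fell with each siRNA (-0.32, -0.45 and -0.40, edgeR adjusted p 0.00016, 6e-06 and 3.3e-05). SARS2 was at 0.03, 0.43 and 0.27, of which the siE2 value alone passed, a call that depends on single libraries. In GENCODE v29, 57.0% of the exon bases of SARS2 are shared with MRPS12 and AC011455.2, so that this contrast is uncertain. EARS2 and UBFD1, 377 bases apart, differed with siE1 (-0.72 and 0.21, both past the threshold) and were both lower with siE2 and siE3. These neighbours were looked at after the members' values had been seen.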
